A study of Mus musculus with 18 samples.

Results

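Imprinted genes are genes that are expressed mainly from the copy inherited from one parent. The 38 imprinted genes described here were listed by symbol and found in the deposited count tables through their Ensembl identifiers in GENCODE vM21. All 38 were present, among 55471 gene identifiers. They were measured in E14 cells, a mouse embryonic stem cell line kept undifferentiated by leukemia inhibitory factor (LIF). Wild-type cells (Wt) were compared with Eif2ak4-/- cells (Gcn), which lack GCN2, the kinase that senses uncharged tRNA during amino acid shortage. Each genotype was studied unstarved, or after 3 h without arginine or without leucine, with 3 libraries in each of the 6 groups. All cells had been seeded the day before on gelatin and were assayed in SILAC medium with 5% dialyzed serum and LIF; the unstarved cells received that medium with every amino acid. Whether the Gcn line is 1 clone, and whether replicates came from separate cultures, is not given in the sources used here. Its genotype and its culture history cannot be told apart, and the spread behind each p-value is that between libraries, which may be technical only.

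Imprinted genes lie mostly in clusters, in each of which a control region carries DNA methylation on the maternal or the paternal chromosome. ZFP57 and TRIM28 protect that methylation in the early embryo and in stem cells, and several clusters pair a non-coding RNA from one parental copy with protein-coding genes from the other. Many of the products act on growth. IGF2 is a growth factor, IGF2R removes it, GRB10 dampens insulin and IGF receptor signaling, and CDKN1C halts the cell cycle. The counts used here sum both parental copies, so no value below speaks of which copy was read.

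Library totals ran from 14777012 to 38814785 counts. Levels are given in CPM, the usual count relative to library size, after TMM scaling (edgeR's normalization by trimmed mean). Eif2ak4, the targeted gene, was at 29.4 ± 2.11 CPM in the Wt libraries (SD, n = 9) and at 5.12 ± 0.808 CPM in the Gcn libraries (SD, n = 9). The summed level of 8 stem cell markers lay between 6390 and 8850 CPM in every library, and the least abundant of them, Klf4, did not fall under 114 CPM. The 3 Gcn libraries numbered 1 deviated from their group means together, with correlations across genes of 0.45 to 0.49. Without them the Gcn counts below were 9 members for arginine and 7 for leucine starvation, and 21, 23 and 22 members for the genotype comparisons in unstarved, arginine-starved and leucine-starved cells. The shares of all genes called without those libraries are not given, so these counts do not set the members apart.

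The sequences that bear most directly on the results are given first. H19, which of the 35 tested members differed most between the genotypes, is processed in part into miR-675, whose hairpin lies within an H19 exon on the minus strand of chromosome 7. The 2 mature forms are shown 5′ to 3′ with the seed, bases 2 to 8, in capitals (RefSeq, GRCm38.p6). The 5p form lies at chr7:142577112-142577133 and the 3p form at chr7:142577078-142577099.
mmu-miR-675-5p: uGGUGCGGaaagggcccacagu
mmu-miR-675-3p: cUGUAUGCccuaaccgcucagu
The 2 seeds differ from each other. The hairpin itself had 0 counts in all 18 libraries. It shares 84 exon bases with H19 on the same strand. Reads on bases shared by 2 genes may be left out of both counts, so this 0 does not speak of its level. The libraries were made from poly(A) RNA and do not measure mature miRNAs.

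Promoter windows, 250 bases before to 50 after a start, were matched in RefSeq (GRCm38.p6) for 31 of the 38 genes, with 45 windows in all. The median number of CpG dinucleotides was 15 in the members' windows and 7 over all 32851 windows. Peg3 and Usp29, which both rose in starved Wt cells, start next to each other on opposite strands. The Peg3 window, chr7:6730370-6730669 on the minus strand, overlaps the Usp29 window, chr7:6730333-6730632 on the plus strand. It is shown with its 13 CpG dinucleotides in capitals.
Peg3: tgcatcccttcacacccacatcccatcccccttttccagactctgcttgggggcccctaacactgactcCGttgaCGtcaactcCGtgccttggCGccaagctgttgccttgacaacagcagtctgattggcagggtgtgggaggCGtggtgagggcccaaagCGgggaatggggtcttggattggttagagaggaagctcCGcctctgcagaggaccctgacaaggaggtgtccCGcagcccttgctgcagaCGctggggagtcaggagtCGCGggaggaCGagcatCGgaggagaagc
Igf2r rose in all 4 starvation comparisons. Its window, chr17:12769657-12769956 on the minus strand, holds the E-box CACGTG at 2 places, shown in capitals.
Igf2r: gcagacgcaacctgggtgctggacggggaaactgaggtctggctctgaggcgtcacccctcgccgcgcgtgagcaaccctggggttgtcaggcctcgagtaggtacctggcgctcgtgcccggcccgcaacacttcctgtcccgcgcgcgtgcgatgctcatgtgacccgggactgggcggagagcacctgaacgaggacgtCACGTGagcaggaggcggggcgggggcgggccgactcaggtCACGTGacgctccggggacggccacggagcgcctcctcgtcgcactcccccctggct
Mest fell in all 4 starvation comparisons and was lower in Gcn cells in every medium. One of its windows, chr6:30737800-30738099 on the plus strand, holds the ZFP57 motif TGCCGC at 2 places, read here on the opposite strand as GCGGCA and shown in capitals.
Mest: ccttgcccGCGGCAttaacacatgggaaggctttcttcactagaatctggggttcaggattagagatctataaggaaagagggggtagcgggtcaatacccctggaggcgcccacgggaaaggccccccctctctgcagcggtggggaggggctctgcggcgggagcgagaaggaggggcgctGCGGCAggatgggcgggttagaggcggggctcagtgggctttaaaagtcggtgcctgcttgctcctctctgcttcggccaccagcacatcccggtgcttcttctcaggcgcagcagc
Over all windows, searched on both strands, 7.15% held an E-box and 11.6% the ZFP57 motif. Among the members' 45 windows, 2 held an E-box, 12 the ZFP57 motif and 0 the amino acid response element TTGCATCA, which 0.895% of all windows held. Matches of CACGTG and TGCCGC can overlap, since the first ends and the second starts with TG. A match is a description of letters only.

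Compared per kb of exon, Peg10 had the highest level in unstarved Wt cells, at 88.9 ± 2.55 CPM per kb (SD, n = 3). Peg10 is a retrotransposon-derived gene that is needed for the placenta. It was followed by Mest at 58.7 ± 2.1, Phlda2 at 43.6 ± 0.995, Cdkn1c at 28.6 ± 2.12, Snrpn at 27.8 ± 2.85, Gnas at 23.6 ± 1.07 and H19 at 22.3 ± 3.5 CPM per kb. The 3 libraries of Cdkn1c overlapped those of Snrpn, and those of Gnas overlapped those of H19, so the order within these pairs was not resolved. The exon length included bases shared with other genes, and reads on these may be left out of the counts. Shared bases made up 64.5% for Igf2, 34.1% for Snrpn and 30.7% for Cdkn1c, so their levels and places may be understated. In unstarved Gcn cells H19 was at 0.603 ± 0.129 CPM per kb and stood 25th instead of 7th, and Igf2 stood 32nd instead of 24th. Mest was then the highest, at 42.6 ± 1.96, with Phlda2 at 36.8 ± 7.31 and Peg10 at 27.4 ± 1.76 CPM per kb. The libraries of Phlda2, at 28.4 to 41.7, overlapped both those of Mest, at 41.1 to 44.8, and those of Peg10, at 25.3 to 28.5 CPM per kb, so Phlda2 was not set apart from either. At the low end, Airn, the RNA that silences Igf2r in other tissues, and Rtl1 and Rasgrf1 had 0 to 5 counts in every library and did not pass the filter on low counts. Peg13 passed it in the Wt cells and in the fit of all libraries, but not in the Gcn cells alone.

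**Figure D1:**
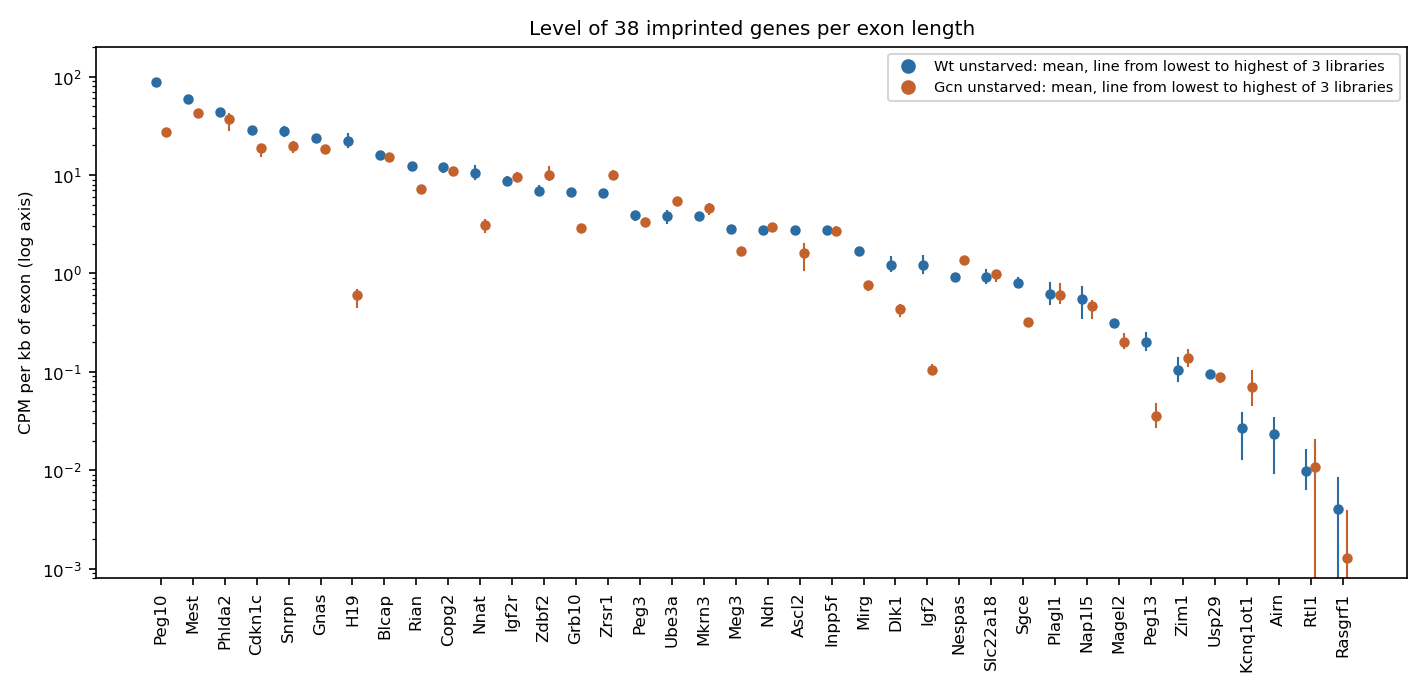
Level of each of the 38 genes in unstarved cells, as CPM per kb of exon on a log axis, with blue for Wt and orange for Gcn; points are means of 3 libraries, lines run from the lowest to the highest library, and means of 0 are not drawn. H19 fell from 22.3 to 0.603 CPM per kb, while Blcap and Copg2 lay close together in both genotypes.

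The genotype comparison asks how the absence of GCN2 goes with transcript levels in a given medium. Most of the imprinted genes that differed were lower in Gcn cells. Of 35 tested, 20 differed in unstarved cells (16 lower in Gcn, 4 higher), 23 in arginine-starved cells (19 lower, 4 higher) and 21 in leucine-starved cells (17 lower, 4 higher), by edgeR's quasi-likelihood test at an adjusted p under 0.05. Over all genes tested, 32.8%, 31.5% and 31.1% were called, with 16.2%, 16.7% and 16.7% called lower and 16.6%, 14.8% and 14.4% called higher. The median log2 fold change of the 35 was -0.25, -0.43 and -0.32, where that of all genes was 0.00, 0.01 and 0.00. The 3 media used separate libraries, but the 3 comparisons are not independent of each other. Same-numbered Gcn libraries of different media deviated together, and all 3 comparisons shared a common estimate of the spread. In all 3 media, 14 members were lower in Gcn cells and 2 were higher, against 9.12% and 7.17% of all genes tested. The members were chosen with earlier results of these data known, and genes of the same cluster were counted singly. Setting their counts beside the shares of all genes is thus a description and not a test. For 13 members every one of the 9 Wt libraries lay above every one of the 9 Gcn libraries, which was the case for 5.77% of all genes tested. These counts of lower members all include Peg13, which did not pass the filter in the Gcn cells alone and entered through the Wt libraries. Zrsr1 had all its Wt libraries below all its Gcn libraries, as had 3.96% of all genes tested.

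**Figure D2:**
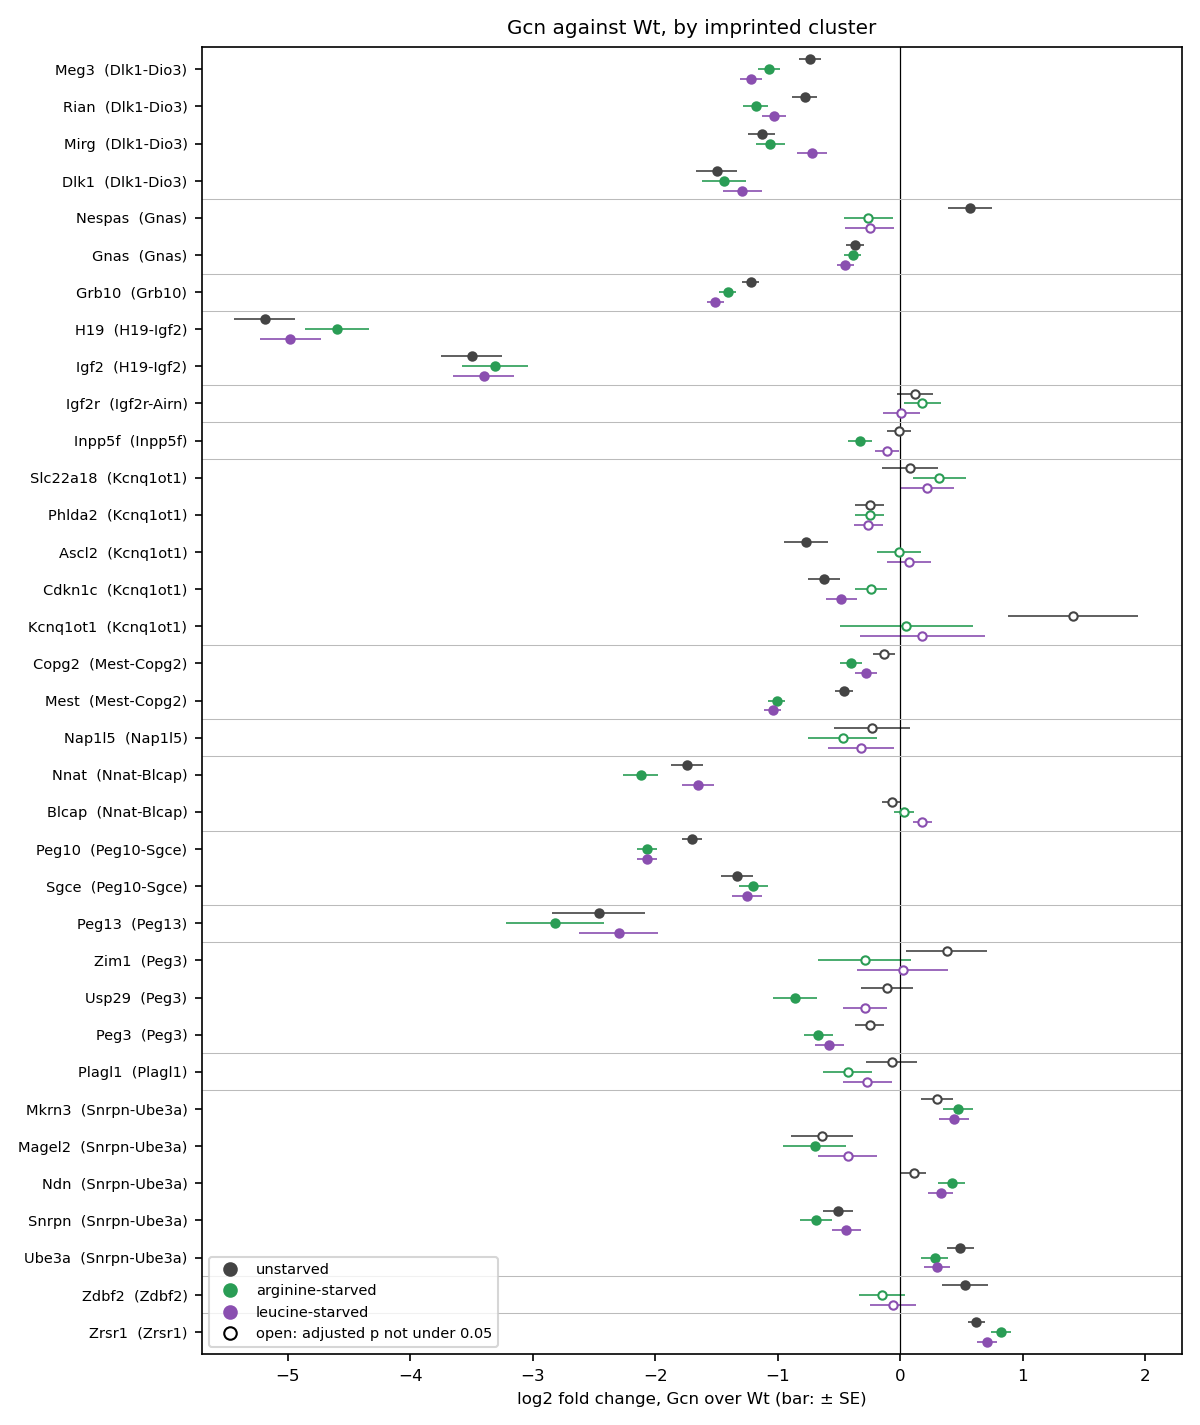
Log2 fold change of Gcn over Wt (bars, ± SE) for the 35 tested genes, grouped by imprinted cluster, in unstarved (dark grey), arginine-starved (green) and leucine-starved (purple) cells; open points did not pass an adjusted p of 0.05. H19 and Igf2 lie farthest to the left, the 4 genes of the Dlk1-Dio3 cluster lie together on the left, and Zrsr1 lies on the right in every medium.

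The H19-Igf2 cluster on chromosome 7 held the largest differences. H19 (142575529 to 142578143, minus strand) is a maternally expressed non-coding RNA that is abundant in the embryo. In unstarved Wt cells its 3 libraries were at 52.8, 47.3 and 64.2 CPM, and in unstarved Gcn cells at 1.12, 1.69 and 1.65 CPM. Starved Wt cells had 32.0, 37.2 and 50.8 CPM without arginine and 32.1, 42.5 and 50.5 CPM without leucine. Starved Gcn cells had 1.31, 2.13 and 1.34 CPM without arginine and 1.61, 1.46 and 1.01 CPM without leucine. All Wt libraries were far above all Gcn libraries, with 684 to 1565 counts against 21 to 54. On the log2 scale the change was -5.19 ± 0.25 (SE) in unstarved cells (adjusted p = 1.48e-10, edgeR), -4.60 ± 0.26 without arginine (adjusted p = 4.3e-10, edgeR) and -4.98 ± 0.25 without leucine (adjusted p = 1.34e-10, edgeR). The ratio of the genotype means was 30.8.

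Igf2 (142650766 to 142666816, minus strand), the paternally expressed growth factor of the same cluster, was lower as well. Its Wt libraries ran from 4.68 to 8.6 CPM with a median of 6.06, and its Gcn libraries from 0.277 to 0.892 CPM with a median of 0.559. The groups did not overlap, and the counts behind them were 129 to 185 in Wt and 7 to 27 in Gcn. On the log2 scale Igf2 differed by -3.50 ± 0.25 in unstarved cells (adjusted p = 7.98e-10, edgeR), -3.31 ± 0.27 without arginine and -3.40 ± 0.25 without leucine. In this annotation 62.8% of the exon bases of Igf2 are shared with the gene model Gm49394, which itself was at no more than 0.153 CPM in any library. Reads on the shared bases may be left out of both counts, so neither level may be complete. The antisense RNA Igf2os, on the opposite strand, was at 1.77 ± 0.227 CPM in Wt and 0.66 ± 0.306 CPM in Gcn (SD, n = 9). The strand setting of the counting is not given in the sources used here, so reads of antisense partners may be shared. H19 and Igf2 are read from opposite parental copies, and both were lower.

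Markers of other cell types moved with the genotype too. Of 10 fibroblast markers, 7 passed the filter, and 5 were lower in Gcn cells in unstarved medium, 4 without arginine and 5 without leucine. In the Gcn cells alone only 5 of the 10 passed. Col3a1 and Twist2, both counted as lower, thus entered through the Wt libraries, where they were higher. The summed level of the 10 was 22.6 to 32.3 CPM in Wt and 10.4 to 15.7 CPM in Gcn libraries. Col1a1 was at 8.2 CPM in unstarved Wt and 1.76 CPM in unstarved Gcn cells, Col3a1 at 1.27 and 0.0776 CPM, and Dcn, Lum, Postn and Twist2 were under 1 CPM in all libraries. Of 7 trophoblast markers, 6 passed the filter and 4, 4 and 3 were lower in Gcn cells and 0, 1 and 1 higher; among the lower were Krt7, at 7.18 and 0.558 CPM in unstarved cells, and Cdx2, at 4.47 and 0.592 CPM. Their summed levels overlapped between genotypes, at 39.4 to 64.2 CPM in Wt and 33.8 to 59.8 CPM in Gcn. Dab2 and Sox7, 2 of 7 primitive endoderm markers, were also lower in all 3 media, and their list summed to 19.7 to 36.8 CPM in Wt and 13.3 to 26.0 CPM in Gcn. Of 5 neural markers 4 passed, and Nes was lower and Sox1 higher in all 3 media, with summed levels of 223 to 274 CPM in Wt and 192 to 268 CPM in Gcn. Of the 8 stem cell markers, 3 were higher in Gcn cells unstarved, 5 without arginine and 5 without leucine, and 0 were lower. Nanog was at 560 against 309 CPM unstarved, and Pou5f1, not called there, at 2500 against 2580 CPM. The 8 summed to 6390 to 7600 CPM in Wt and 7240 to 8850 CPM in Gcn libraries. Over all genes tested, 16.6%, 14.8% and 14.4% were higher and 16.2%, 16.7% and 16.7% lower in Gcn cells. In bulk RNA fewer cells of a type and less RNA per cell cannot be told apart, and the part of such cells in the differences of H19, Igf2 and the other members was not tested.

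In the Peg10-Sgce cluster of chromosome 6 both genes were lower in Gcn cells. Peg10 (4747306 to 4760517, plus strand) was at 593, 609 and 575 CPM in unstarved Wt libraries and at 190, 189 and 169 CPM in unstarved Gcn libraries. Over all media Wt ran from 504 to 609 CPM and Gcn from 115 to 190 CPM, with no overlap. The log2 fold change was -1.70 ± 0.08 unstarved (adjusted p = 4.49e-13, edgeR), -2.07 ± 0.08 without arginine and -2.07 ± 0.08 without leucine. Sgce (4674350 to 4747207, minus strand), which encodes a membrane protein of the dystrophin complex and starts beside Peg10 on the other strand, was at 9.58, 7.82 and 8.09 CPM against 3.35, 3.41 and 3.45 CPM. On the log2 scale Sgce differed by -1.33 ± 0.13 (adjusted p = 6.42e-08, edgeR) unstarved, -1.20 ± 0.12 without arginine and -1.25 ± 0.12 without leucine. Over the genotype means, Peg10 was 3.79 times and Sgce 2.37 times as high in Wt as in Gcn cells.

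**Figure D3:**
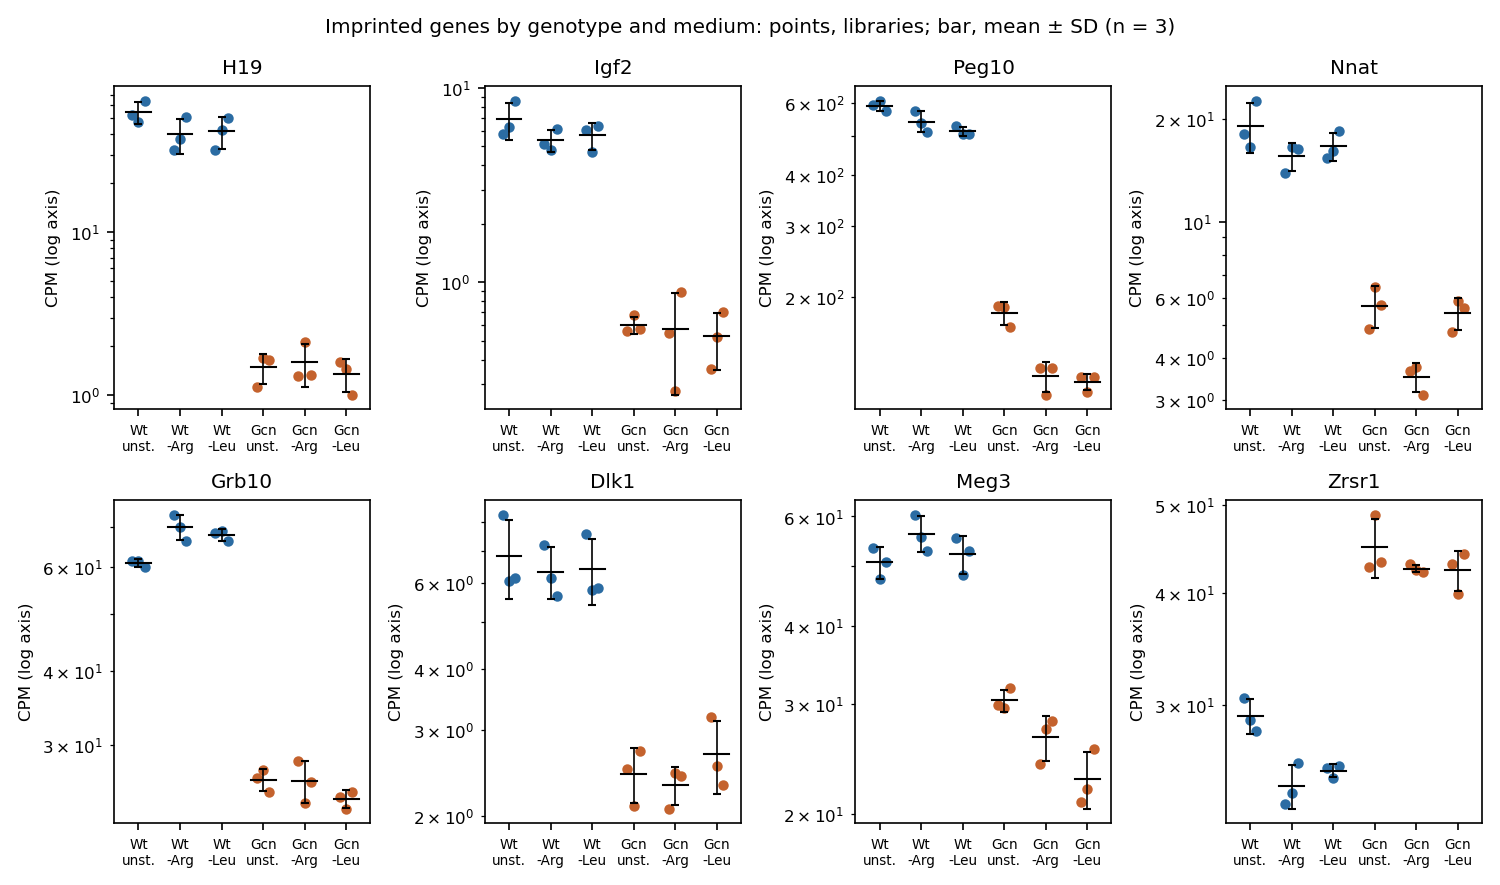
CPM of 8 imprinted genes on log axes in the 6 groups, blue for Wt and orange for Gcn; points are libraries and bars the mean ± SD (n = 3). In the H19, Igf2, Peg10, Nnat, Grb10, Dlk1 and Meg3 panels every Wt library lies above every Gcn library, and in the Zrsr1 panel every one lies below.

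The 4 tested genes of the Dlk1-Dio3 cluster on chromosome 12 were lower in Gcn cells in every medium, with a median log2 fold change of -0.96 unstarved and -1.12 in both starved media. Dlk1 (109452823 to 109463336, plus strand), the paternally expressed Notch-related ligand, ran from 5.66 to 8.29 CPM in Wt and from 2.07 to 3.19 CPM in Gcn libraries. Dlk1 differed by -1.50 ± 0.17 in unstarved cells (adjusted p = 5.45e-07, edgeR). Meg3 (109541001 to 109571726, plus strand), a maternally expressed non-coding RNA whose loss marks stem cell lines with poor developmental capacity, was at 53.5, 47.6 and 50.8 CPM in unstarved Wt and 29.9, 29.5 and 31.8 CPM in unstarved Gcn libraries. Its log2 fold change was -0.74 ± 0.09 unstarved (adjusted p = 8.57e-07, edgeR), -1.07 ± 0.09 without arginine and -1.22 ± 0.09 without leucine. Rian, which hosts small nucleolar RNAs, ran from 214 to 268 CPM in Wt and from 91.2 to 138 CPM in Gcn, and Mirg, which hosts microRNAs, from 8.01 to 12.6 and from 4.51 to 6.02 CPM. Meg3, Rian and Mirg lie one after another on the same strand, and in both genotypes the 3 were detected, unlike Rtl1.

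Among single genes outside these clusters, Nnat, Grb10 and Peg13 were lower in Gcn cells. Nnat (chr2:157560078-157562522, plus strand), a proteolipid of neuronal membranes that lies within an intron of Blcap, ran from 13.9 to 22.6 CPM in Wt and from 3.12 to 6.45 CPM in Gcn. Nnat differed on the log2 scale by -1.74 ± 0.13 unstarved (adjusted p = 1.72e-09, edgeR), -2.12 ± 0.14 without arginine and -1.65 ± 0.13 without leucine. Blcap itself did not pass in any medium, with 41.8 to 51.2 CPM in Wt and 39.4 to 54.5 CPM in Gcn. Grb10 (chr11:11930508-12038683, minus strand) was at 61.4, 61.4 and 59.9 CPM in unstarved Wt and 26.4, 27.2 and 25.0 CPM in unstarved Gcn libraries, with a log2 fold change of -1.22 ± 0.07 (adjusted p = 4.15e-11, edgeR). It was -1.41 ± 0.07 without arginine and -1.51 ± 0.07 without leucine. Peg13, a non-coding RNA within Trappc9, was low, at 0.791 to 1.34 CPM in Wt and 0.0637 to 0.325 CPM in Gcn, or 17 to 41 against 1 to 10 counts. Trappc9 was at 27.0 ± 1.87 CPM in Wt and 29.9 ± 4.3 CPM in Gcn (SD, n = 9).

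Mest, Gnas and Snrpn were also lower in Gcn cells in all 3 media. Mest (chr6:30723547-30748465, plus strand), an alpha/beta hydrolase-fold protein, was at 236, 222 and 236 CPM in unstarved Wt and 166, 177 and 162 CPM in unstarved Gcn libraries. Its log2 fold change was -0.46 ± 0.07 unstarved (adjusted p = 1.23e-05, edgeR), -1.01 ± 0.07 without arginine (adjusted p = 1.18e-10, edgeR) and -1.04 ± 0.07 without leucine (adjusted p = 9.21e-11, edgeR). Gnas, the stimulatory G protein subunit, ran from 231 to 274 CPM in Wt and 164 to 211 CPM in Gcn. Snrpn, a splicing protein, ran from 49.5 to 66.7 and from 26.0 to 50.8 CPM, so the genotypes overlapped over all media although they did not within a medium. Snrpn shares 27.3% of its exon bases with Gm38393, which was at 9.09 ± 1.98 CPM in Wt and 9.01 ± 1.83 CPM in Gcn (SD, n = 9).

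Zrsr1 and Ube3a were higher in Gcn cells in all 3 media. Zrsr1 (chr11:22972005-22976496, plus strand), a retrogene related to the splicing factor U2AF1, ran from 23.3 to 30.6 CPM in Wt and from 39.9 to 48.8 CPM in Gcn, without overlap. Its log2 fold change was 0.62 ± 0.07 unstarved (adjusted p = 1.48e-06, edgeR), 0.82 ± 0.08 without arginine and 0.71 ± 0.08 without leucine. Its host gene Commd1 was at 13.8 ± 1.81 and 14.8 ± 2.06 CPM (SD, n = 9). Ube3a, the ubiquitin ligase that is silenced on the paternal copy in neurons, had log2 fold changes of 0.49 ± 0.11, 0.28 ± 0.11 and 0.30 ± 0.11, with adjusted p = 0.00127, 0.0489 and 0.0352 by edgeR. The unstarved value was 0.15 with the replicate block and GC correction (adjusted p = 0.084, edgeR). The arginine value was lost without any 1 of 12 libraries (Wt unstarved 1, Wt arginine 2 and 3, the 3 Wt leucine, the 3 Gcn unstarved, Gcn arginine 2 and 3 and Gcn leucine 2), at adjusted p from 0.0533 to 0.233 by edgeR. It was also lost by DESeq2 (adjusted p = 0.0508), by limma-voom (adjusted p = 0.058), and in edgeR with the replicate block (adjusted p = 0.0547) and with the block and GC correction (0.13, adjusted p = 0.158). The block here joined same-numbered Wt and Gcn libraries, which correlated by -0.23 to 0.14. The leucine value was lost without any 1 of the 3 Wt leucine libraries or Gcn leucine 2 or 3, at adjusted p from 0.0523 to 0.213 by edgeR. Ube3a and its antisense transcript Snhg14 share exon bases, and Snhg14 was at 24.0 ± 2.78 CPM in Wt and 23.0 ± 4.55 CPM in Gcn (SD, n = 9).

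By parental copy as usually reported, 8 of 19 paternally, 4 of 10 maternally and 2 of 6 variably expressed members were lower in Gcn cells in all 3 media. Of all genes tested, 9.12% were, and the limits given above for Peg13 and for the choice of members apply here too. The share of all genes called in no medium was not computed. Of the 35 tested members, 8 were called in no medium. Among these, Igf2r was at 82.3 to 97.7 CPM in unstarved Gcn and 74.1 to 87.8 CPM in unstarved Wt libraries. Kcnq1ot1, the long antisense RNA of the Kcnq1ot1 cluster, had a log2 fold change of 1.41 ± 0.53 in unstarved cells with an adjusted p of 0.0571 by edgeR, and it varied from 1.21 to 9.37 CPM over the 18 libraries. It was called by DESeq2 (adjusted p = 0.0353) and limma-voom (adjusted p = 0.0174), and by edgeR without Wt unstarved 2 (1.79), Gcn unstarved 2 (1.64) or Gcn arginine 2 (1.40), at adjusted p from 0.0472 to 0.0486. The other members of that cluster differed in part. Cdkn1c was at 58.4 ± 4.31 CPM in unstarved Wt and 38.2 ± 5.6 CPM in unstarved Gcn cells (SD, n = 3), with a log2 fold change of -0.62 ± 0.13 (adjusted p = 0.00112, edgeR), and it was lower by -0.48 ± 0.13 without leucine (adjusted p = 0.00726, edgeR). The transcription factor Ascl2 was called in unstarved cells, at 4.49 ± 0.152 against 2.62 ± 0.772 CPM (SD, n = 3), with a log2 fold change of -0.77 ± 0.18 (adjusted p = 0.00241, edgeR). Phlda2 and Slc22a18 were not called.

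Another 11 members were called between genotypes in 1 or 2 of the 3 media, Ascl2 and Cdkn1c among them. The matching share of all genes was not computed. Usp29 was lower in Gcn cells without arginine, by -0.86 ± 0.18 (adjusted p = 0.000712, edgeR). Copg2 was lower by -0.40 ± 0.09 without arginine (adjusted p = 0.00242, edgeR) and -0.28 ± 0.09 without leucine (adjusted p = 0.0257, edgeR), the second call being lost without Wt leucine 1 or 2 or Gcn leucine 2 (adjusted p from 0.0709 to 0.135, edgeR). Ndn and Mkrn3, neighbors in the Snrpn-Ube3a cluster, were higher in Gcn cells in both starved media. For Ndn the change was 0.42 ± 0.11 without arginine (adjusted p = 0.00389, edgeR) and 0.33 ± 0.10 without leucine (adjusted p = 0.0164, edgeR). The second was lost without Wt leucine 1 or 3 or Gcn leucine 1 or 2 (adjusted p from 0.0522 to 0.0748, edgeR). For Mkrn3 it was 0.47 ± 0.12 (adjusted p = 0.00525, edgeR) and 0.44 ± 0.12 (adjusted p = 0.00895, edgeR). These were lost without Gcn arginine 2 (adjusted p = 0.0566, edgeR), and without Wt leucine 1 or Gcn leucine 2 (adjusted p from 0.0524 to 0.0708, edgeR). Magel2, of the same cluster, had the other sign, at -0.70 ± 0.26 without arginine (adjusted p = 0.045, edgeR). That call was lost without any 1 of 10 libraries (the 3 Wt unstarved, Wt arginine 1 and 3, Wt leucine 1, Gcn unstarved 2, Gcn arginine 1 and 2 and Gcn leucine 2), at adjusted p from 0.0501 to 0.175 by edgeR. It was also lost by DESeq2 (adjusted p = 0.0825), by limma-voom (adjusted p = 0.0607), and in edgeR with library size scaling, no filter, the block with GC correction, or without the Gcn libraries numbered 1 (adjusted p from 0.0541 to 0.0807). Inpp5f, a phosphoinositide phosphatase gene, was lower by -0.33 ± 0.10 without arginine (adjusted p = 0.017, edgeR), which was lost without Wt arginine 2 or 3 or Gcn arginine 2 (adjusted p from 0.0573 to 0.108, edgeR). Zdbf2 was higher in unstarved Gcn cells by 0.53 ± 0.19 (adjusted p = 0.045, edgeR), lost without any 1 of 9 libraries (Wt unstarved 1 and 3, Wt arginine 2 and 3, Wt leucine 3, Gcn unstarved 1 and 2, Gcn arginine 1 and Gcn leucine 1), at adjusted p from 0.0501 to 0.198 by edgeR. The Zdbf2 call was also lost with library size scaling, no filter, the block with GC correction, or without the Gcn libraries numbered 1, at adjusted p from 0.0629 to 0.263 by edgeR.

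The starvation comparisons ask how 3 h without an amino acid changes the transcripts within a genotype. The arginine and leucine comparisons of a genotype share their 3 unstarved libraries, so they are not independent of each other. In Wt cells without arginine, 17 of 35 tested members were called, 10 higher and 7 lower, against 40.9% of all genes tested (20.9% higher, 20.0% lower). Without leucine 10 of 35 were called, 5 in each direction, against 29.6% of all genes tested (15.5% higher, 14.1% lower). The arginine count was 11 without Wt arginine 1, and the leucine count was 6 without Wt unstarved 3. The shares of all genes called in those 2 fits are not given. In Gcn cells 8 of 34 were called without arginine (4 in each direction) and 6 of 34 without leucine (2 higher, 4 lower), against 28.0% (14.3% higher, 13.7% lower) and 21.8% (11.7% higher, 10.0% lower) of all genes tested. The members' share was thus near that of all genes in each case, and their median log2 fold changes lay between -0.08 and 0.02.

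Same-numbered Gcn libraries deviated together in all pairs, with correlations of 0.18 to 0.49, so a fit with the replicate number as a block also applies to the Gcn comparisons. With that block 19 members were called without arginine (7 higher, 12 lower) and 13 without leucine (5 higher, 8 lower), where 46.4% (22.3% higher, 24.2% lower) and 40.6% (20.5% higher, 20.2% lower) of all genes tested were called. The 11 members it added without arginine were Ascl2, Cdkn1c and Slc22a18, which were higher, and Gnas, Inpp5f, Kcnq1ot1, Phlda2, Rian, Snrpn, Ube3a and Zim1, which were lower. Without leucine it added Cdkn1c, Mkrn3 and Usp29 (higher) and Gnas, Kcnq1ot1, Rian and Zim1 (lower). Cdkn1c, the cell cycle inhibitor, had a blocked log2 fold change of 0.46 (adjusted p = 0.000133, edgeR) without arginine and 0.32 (adjusted p = 0.0025, edgeR) without leucine. Its libraries were at 31.7, 41.3 and 41.6 CPM unstarved, 39.8, 65.0 and 50.2 CPM without arginine and 42.3, 53.4 and 48.3 CPM without leucine. Each starved Gcn library was thus above the unstarved library of its number.

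Igf2r, Sgce and Mest were called in all 4 starvation comparisons, the first 2 as higher and Mest as lower. Igf2r (chr17:12682406-12769664, minus strand) carries IGF2 and lysosomal enzymes to the lysosome. In Wt cells it was at 74.1, 87.8 and 81.9 CPM unstarved, 122, 136 and 159 CPM without arginine and 122, 129 and 133 CPM without leucine. In Gcn cells it was at 97.7, 85.0 and 82.3 CPM unstarved, 201, 123 and 143 CPM without arginine and 152, 116 and 126 CPM without leucine. Starved and unstarved libraries did not overlap in either genotype. Igf2r rose on the log2 scale by 0.78 ± 0.09 (adjusted p = 8.6e-06, edgeR) and 0.65 ± 0.09 (adjusted p = 8.86e-05, edgeR) in Wt, and 0.84 ± 0.16 (adjusted p = 0.00174, edgeR) and 0.56 ± 0.16 (adjusted p = 0.023, edgeR) in Gcn cells, for arginine and leucine. The last value was lost without any 1 of Gcn unstarved 2 and 3 and Gcn leucine 1 and 3, at adjusted p from 0.0566 to 0.0982 by edgeR. Airn, read from the other strand across the Igf2r start, had 0 to 5 counts per library throughout.

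Sgce and Peg10, which start next to each other, moved in opposite directions. Sgce rose from 8.49 ± 0.946 CPM in unstarved Wt cells to 11.7 ± 0.95 without arginine and 11.7 ± 1.32 CPM without leucine (SD, n = 3). In Gcn cells it rose from 3.40 ± 0.0486 to 5.06 ± 0.623 and 4.97 ± 0.347 CPM (SD, n = 3). The log2 fold changes were 0.45 ± 0.11, 0.45 ± 0.11, 0.59 ± 0.15 and 0.54 ± 0.14, with adjusted p = 0.00404, 0.00659, 0.00877 and 0.0164 by edgeR. The last was lost without any 1 of the 3 Gcn unstarved libraries or Gcn leucine 3, at adjusted p from 0.0508 to 0.0652 by edgeR. Corrected for GC content with the block, the 2 Wt values were 0.22 (adjusted p = 0.0659, edgeR) and 0.24 (adjusted p = 0.0561, edgeR). Peg10 fell in Gcn cells from 190, 189 and 169 CPM to 134, 115 and 134 CPM without arginine and 127, 117 and 127 CPM without leucine. Its log2 fold change was -0.49 ± 0.09 (adjusted p = 0.0012, edgeR) and -0.57 ± 0.09 (adjusted p = 0.0006, edgeR). In Wt cells it was -0.21 ± 0.06 without leucine (adjusted p = 0.0121, edgeR), a call that was lost without Wt leucine 2 (adjusted p = 0.0521, edgeR), and -0.13 ± 0.06 without arginine (adjusted p = 0.089, edgeR).

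Mest fell in both genotypes, and more so in Gcn cells. In Wt cells it went from 236, 222 and 236 CPM to 203, 177 and 197 CPM without arginine and 201, 192 and 196 CPM without leucine. In Gcn cells it went from 166, 177 and 162 CPM to 95.0, 94.2 and 93.5 CPM and to 98.6, 99.0 and 93.6 CPM. No starved library reached the unstarved range of its genotype. The log2 fold changes were -0.26 ± 0.06 (adjusted p = 0.00249, edgeR) and -0.24 ± 0.06 (adjusted p = 0.00796, edgeR) in Wt cells, and -0.81 ± 0.08 (adjusted p = 7.19e-06, edgeR) and -0.80 ± 0.08 (adjusted p = 1.65e-05, edgeR) in Gcn cells. Its neighbor Copg2, a coatomer subunit on the opposite strand whose exons share 912 bases with those of Mest, rose in Wt cells without arginine, from 61.7 ± 5.38 to 80.4 ± 0.799 CPM (SD, n = 3). That change was 0.38 ± 0.07 on the log2 scale (adjusted p = 0.000326, edgeR). In Gcn cells Copg2 was at 56.4 ± 4.07, 60.3 ± 7.57 and 57.8 ± 5.68 CPM (SD, n = 3) and was not called.

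**Figure D4:**
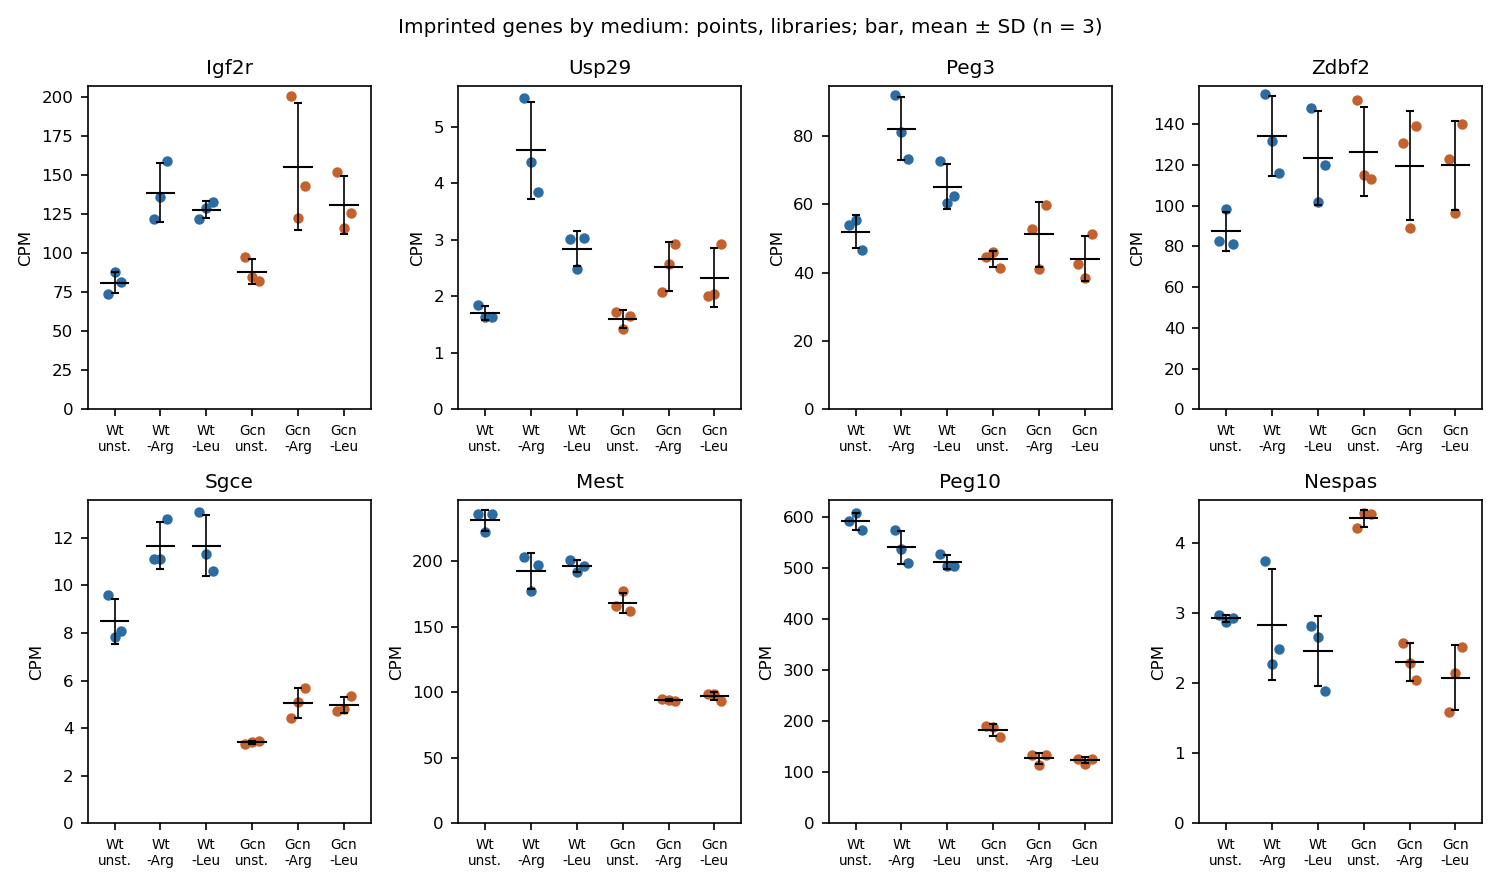
CPM of 8 imprinted genes on linear axes from 0 in the 6 groups, blue for Wt and orange for Gcn; points are libraries and bars the mean ± SD (n = 3). Igf2r and Sgce are higher and Mest is lower in the starved groups of both genotypes, Nespas drops from 4.35 to 2.3 and 2.08 CPM in Gcn cells, and Usp29 is highest in arginine-starved Wt cells at 4.58 CPM.

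In the Peg3 cluster on chromosome 7, Usp29 and Peg3 rose in Wt cells without arginine and without leucine, and Zim1 was not called. Usp29 (6730578 to 6967219, plus strand), a ubiquitin-specific protease, was at 1.85, 1.64 and 1.63 CPM unstarved, 5.52, 4.38 and 3.85 CPM without arginine and 3.01, 2.49 and 3.04 CPM without leucine. The log2 fold change was 1.42 ± 0.17 (adjusted p = 5.54e-06, edgeR) and 0.72 ± 0.18 (adjusted p = 0.00721, edgeR). Peg3 (6703892 to 6730431, minus strand), a zinc finger protein that restrains growth, was at 53.9, 55.5 and 46.7 CPM unstarved, 91.9, 81.2 and 73.4 CPM without arginine and 72.6, 60.5 and 62.3 CPM without leucine. Peg3 rose on the log2 scale by 0.66 ± 0.09 (adjusted p = 3.48e-05, edgeR) and 0.32 ± 0.09 (adjusted p = 0.0154, edgeR). The leucine value of Peg3 was lost without Wt unstarved 3 or Wt leucine 1, at adjusted p of 0.0656 and 0.072 by edgeR. In Gcn cells Usp29 went from 1.72, 1.42 and 1.65 CPM to 2.07, 2.57 and 2.93 CPM without arginine (log2 fold change 0.68 ± 0.22, adjusted p = 0.0373, edgeR). That call was lost without any 1 of Gcn unstarved 2 and 3 and Gcn arginine 2 and 3, at adjusted p from 0.0753 to 0.125 by edgeR. Without leucine Usp29 was at 2.00, 2.05 and 2.93 CPM in Gcn cells, with a log2 fold change of 0.55 ± 0.22 (adjusted p = 0.0868, edgeR) and 0.54 with the block (adjusted p = 0.0189, edgeR). Peg3 was at 51.2 ± 9.55 and 44.1 ± 6.61 CPM in starved and 43.9 ± 2.33 CPM in unstarved Gcn cells (SD, n = 3) and was not called, except without Gcn arginine 2 (0.39 for arginine, adjusted p = 0.0387, edgeR). Between genotypes Peg3 was lower in Gcn cells in both starved media, by -0.67 ± 0.12 (adjusted p = 0.000241, edgeR) and -0.58 ± 0.12 (adjusted p = 0.000894, edgeR) on the log2 scale, and by -0.25 ± 0.12 in unstarved cells (adjusted p = 0.13, edgeR). Zim1, the maternally expressed neighbor, was at 0.292 to 1.33 CPM. Usp29 shares 14.3% of its exon bases with the antisense gene Zim3, which was at 0.0473 ± 0.0365 CPM in Wt and 0.277 ± 0.121 CPM in Gcn (SD, n = 9).

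Zdbf2 (chr1:63273265-63314576, plus strand), a zinc finger protein whose dosage affects growth after birth, also rose in Wt cells without arginine. It was at 82.7, 98.4 and 81.3 CPM unstarved, 155, 132 and 116 CPM without arginine and 148, 102 and 120 CPM without leucine. The log2 fold change was 0.62 ± 0.15 without arginine (adjusted p = 0.00875, edgeR) and 0.49 ± 0.15 without leucine (adjusted p = 0.0351, edgeR). The leucine call was lost without any 1 of 5 libraries (Wt unstarved 1 and 3, Wt arginine 2 and Wt leucine 1 and 3), at adjusted p from 0.0506 to 0.118 by edgeR. The 9 Gcn libraries of Zdbf2 ran from 89.0 to 152 CPM, and neither starved group was called. Ndn, a MAGE family protein, fell in Wt cells without arginine from 9.88, 10.3 and 10.5 to 7.69, 7.44 and 7.36 CPM, with a log2 fold change of -0.45 ± 0.10 (adjusted p = 0.0016, edgeR). Nap1l5 and Plagl1 were called as higher without arginine, with log2 fold changes of 0.64 ± 0.24 (adjusted p = 0.0432, edgeR) and 0.51 ± 0.17 (adjusted p = 0.0272, edgeR). Nap1l5 was low, at 1.01, 1.35 and 0.651 CPM unstarved and 1.64, 1.29 and 1.85 CPM without arginine, and these groups overlapped. The Nap1l5 call was lost without any 1 of 7 libraries (Wt unstarved 1 and 3, Wt arginine 1 and 3 and the 3 Wt leucine), at adjusted p from 0.0503 to 0.183 by edgeR. The Plagl1 call was lost without Wt unstarved 2 or 3 or Wt arginine 1, at adjusted p from 0.0929 to 0.123 by edgeR.

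The other Wt arginine calls were under 0.28 in size on the log2 scale apart from Copg2. Phlda2, Zrsr1, Snrpn, Blcap and Gnas were lower, by -0.27, -0.26, -0.22, -0.21 and -0.14, and Mkrn3 and Grb10 were higher, by 0.27 and 0.20. Each of these 7 was lost without at least 1 library, namely Wt arginine 3 for Phlda2 (adjusted p = 0.0522), Wt arginine 1 for Zrsr1 (adjusted p = 0.0501) and for Grb10 (adjusted p = 0.0638), all by edgeR. Snrpn was lost without Wt unstarved 1 or Wt arginine 2 or 3 (adjusted p to 0.173), and Blcap without Wt unstarved 1 or 3 or Wt arginine 2 (adjusted p to 0.0835), by edgeR. Gnas was lost without Wt unstarved 1 or 3, any Wt arginine library or Wt leucine 2 (adjusted p to 0.162), and Mkrn3 without Wt unstarved 1 or 3 or any Wt arginine library (adjusted p to 0.123), by edgeR. Without leucine, Mirg fell in Wt cells from 12.6, 12.2 and 12.0 to 9.3, 8.01 and 9.18 CPM (log2 fold change -0.48 ± 0.10, adjusted p = 0.00119, edgeR). Ascl2 was lower by -0.47 ± 0.14 (adjusted p = 0.0215, edgeR), a call that was lost without Wt unstarved 3 or Wt leucine 2 (adjusted p from 0.0579 to 0.115, edgeR). Zrsr1 was lower without leucine by -0.20 ± 0.07 (adjusted p = 0.0488, edgeR), which was lost without any 1 of the 9 Wt libraries (adjusted p from 0.0528 to 0.163, edgeR).

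**Figure D5:**
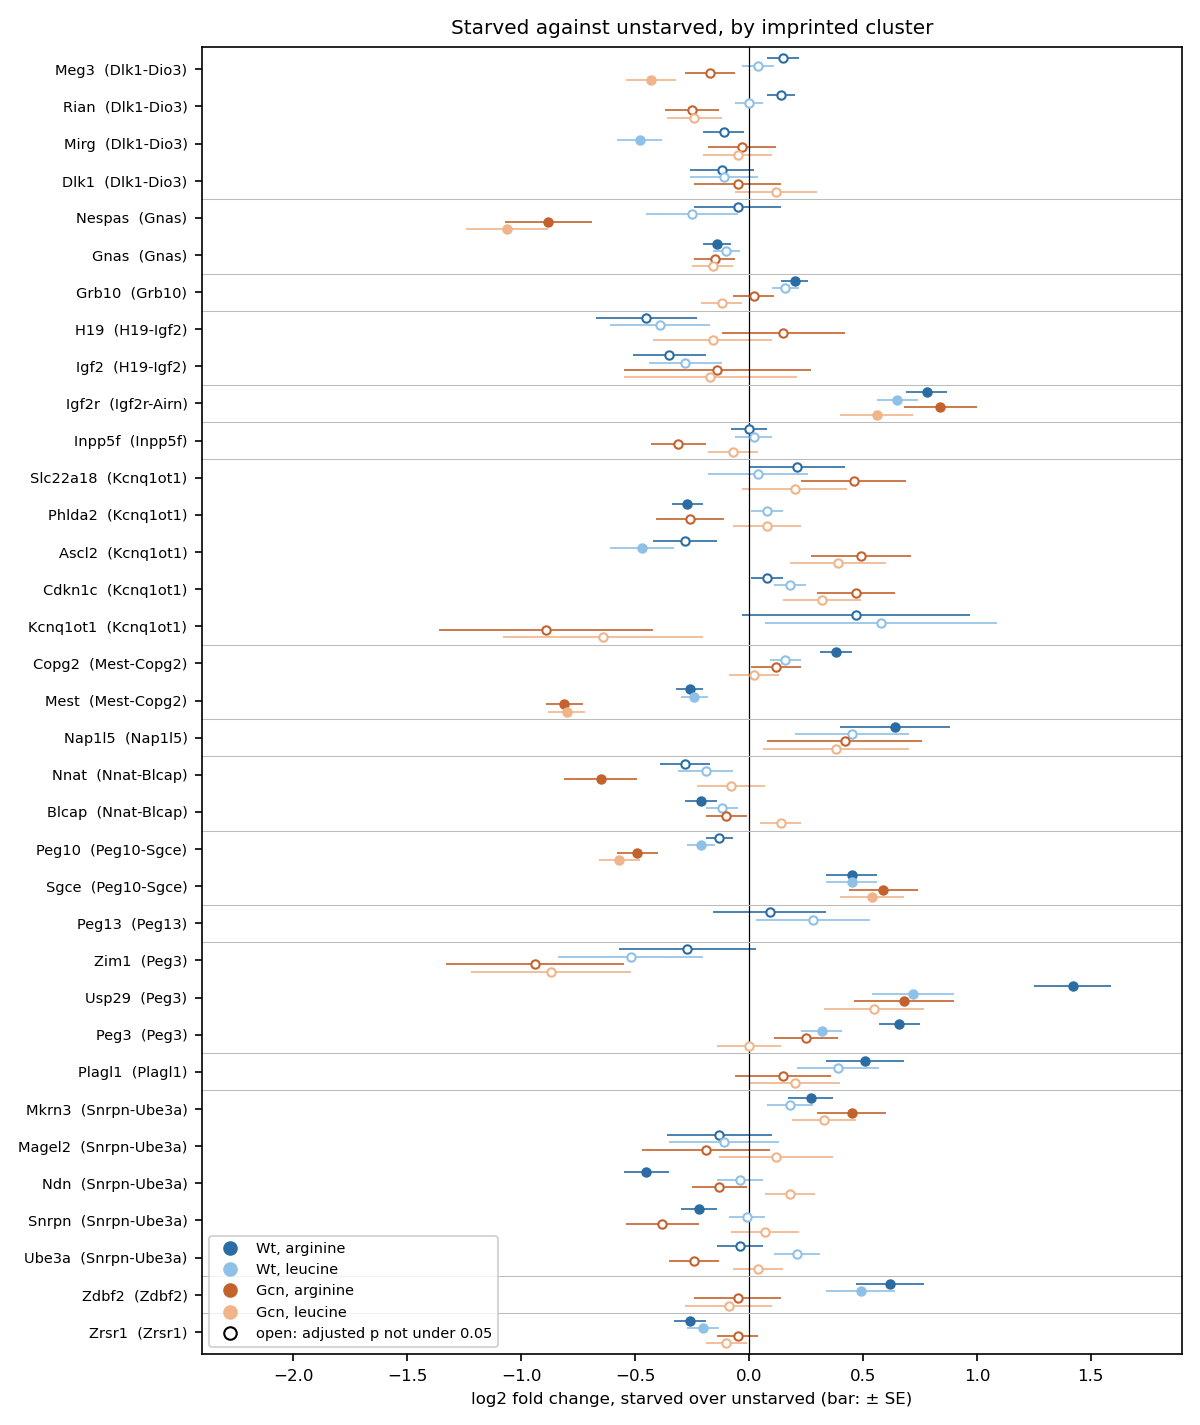
Log2 fold change of starved over unstarved cells (bars, ± SE) for the tested genes, grouped by imprinted cluster: dark blue, Wt without arginine; light blue, Wt without leucine; dark orange, Gcn without arginine; light orange, Gcn without leucine; open points did not pass an adjusted p of 0.05. Igf2r and Sgce are filled to the right of 0 and Mest to the left in all 4 comparisons, and Nespas is filled in the 2 Gcn comparisons.

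In Gcn cells Nespas and Nnat changed as well. Nespas (chr2:174281237-174295436, minus strand), an antisense RNA of the Gnas cluster, went from 4.21, 4.42 and 4.41 CPM to 2.57, 2.29 and 2.04 CPM without arginine and 1.58, 2.14 and 2.51 CPM without leucine. The log2 fold changes were -0.88 ± 0.19 (adjusted p = 0.0031, edgeR) and -1.06 ± 0.18 (adjusted p = 0.000992, edgeR). In Wt cells Nespas was at 2.97, 2.87 and 2.93 CPM unstarved and ran from 1.89 to 3.74 CPM in starved cells. In unstarved cells it was higher in Gcn than in Wt, by 0.57 ± 0.18 on the log2 scale (adjusted p = 0.02, edgeR), a call lost without any 1 of the 3 Wt unstarved libraries or Gcn unstarved 2, at adjusted p from 0.0523 to 0.0569 by edgeR. Nespas shares 988 exon bases with Gnas on the opposite strand, and Gnas ran from 164 to 274 CPM. Nnat fell without arginine from 4.86, 6.45 and 5.71 CPM to 3.67, 3.75 and 3.12 CPM (log2 fold change -0.65 ± 0.16, adjusted p = 0.00715, edgeR). Mkrn3 was higher without arginine by 0.45 ± 0.15 (adjusted p = 0.0312, edgeR), which was lost without any 1 of Gcn unstarved 1 and 3 and Gcn arginine 2, at adjusted p from 0.0596 to 0.144 by edgeR. Without leucine Meg3 fell from 29.9, 29.5 and 31.8 to 20.9, 21.9 and 25.4 CPM (log2 fold change -0.43 ± 0.11, adjusted p = 0.0112, edgeR).

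H19 and Igf2, the members with the largest genotype difference, were not called in a starvation comparison by edgeR with all libraries, the filter and no block. In Wt cells H19 changed by -0.45 ± 0.22 without arginine (adjusted p = 0.144, edgeR) and by -0.39 ± 0.22 without leucine (adjusted p = 0.233, edgeR) on the log2 scale. The arginine value was -0.66 without Wt arginine 3 (adjusted p = 0.0254, edgeR) and -0.47 by limma-voom (adjusted p = 0.0325). The Wt numbers did not meet the rule for pairing in every pair. With the replicate block, H19 was called at -0.47 without arginine (adjusted p = 0.000642, edgeR) and -0.40 without leucine (adjusted p = 0.0028, edgeR). Each starved Wt library of H19 lay below the unstarved library of its number. Igf2 changed in Wt cells by -0.35 ± 0.16 without arginine (adjusted p = 0.0933, edgeR), and was called with the block (-0.34, adjusted p = 0.0128, edgeR), with no filter (adjusted p = 0.0387, edgeR) and without Wt unstarved 1 (-0.47, adjusted p = 0.0359, edgeR). In all, 12 tested members were called in none of the 4 starvation comparisons by that fit, H19 and Igf2 among them. The matching share of all genes was not computed. Of the 12 members, Cdkn1c, Inpp5f, Kcnq1ot1, Rian, Slc22a18, Ube3a and Zim1 were called in at least 1 Gcn comparison with the block.

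Whether starvation changed a member differently in the genotypes was tested as an interaction over the 18 libraries. Mest was the 1 member of 35 called for either amino acid, as lower in both, where 2.3% of all genes tested were called for arginine and 0.821% for leucine (1.68% and 0.668% called lower). Its fall was larger in Gcn cells by -0.55 ± 0.09 on the log2 scale for arginine (adjusted p = 0.00179, edgeR) and by -0.58 ± 0.09 for leucine (adjusted p = 0.00157, edgeR). Without Gcn unstarved 3 or Gcn leucine 1 the count was 2 for arginine, and without Gcn leucine 3 it was 2 for leucine. Shares of all genes are not given for those fits. For arginine, 11 members had an unadjusted p under 0.05, and for leucine 9. The share of all genes under that unadjusted threshold was not computed, so these counts do not set the members apart. Nespas, called in starved Gcn but not in starved Wt cells, had interactions of -0.83 ± 0.27 (adjusted p = 0.11, edgeR) and -0.82 ± 0.27 (adjusted p = 0.163, edgeR). Zdbf2, with the converse calls, had interactions of -0.68 ± 0.27 (adjusted p = 0.213, edgeR) and -0.59 ± 0.27 (adjusted p = 0.355, edgeR). For Usp29 and Peg3 under arginine starvation the values were -0.75 ± 0.28 (adjusted p = 0.158, edgeR) and -0.42 ± 0.17 (adjusted p = 0.219, edgeR). With the block the Usp29 value was -0.74 (adjusted p = 0.0347, edgeR), and with no filter the Peg3 value was -0.44 (adjusted p = 0.0362, edgeR). With a replicate block within each genotype, 9 members were called for arginine (2 higher, 7 lower), where 14.8% of all genes tested were (5.91% higher, 8.89% lower). For leucine 9 were called (3 higher, 6 lower), where 11.1% of all genes tested were (4.43% higher, 6.67% lower). Nespas was then at -0.82 (adjusted p = 0.0194, edgeR) and -0.84 (adjusted p = 0.0213, edgeR), and Peg10 at -0.37 in both (adjusted p = 0.00188 and 0.0026, edgeR). The Wt numbers did not pair their libraries in every case, since Wt unstarved 2 and Wt leucine 2 correlated by 0.05.

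Of 28 regulators of imprinting, all of which passed the filter, 11 were higher and 5 lower in unstarved Gcn cells, 10 and 7 without arginine, and 9 and 7 without leucine. Over all genes tested, 16.6%, 14.8% and 14.4% were higher and 16.2%, 16.7% and 16.7% lower. Dppa3 (also named Stella), which shields the maternal genome from demethylation in the zygote, was lower in Gcn cells, at 20.5 ± 3.29 against 44.5 ± 6.05 CPM (SD, n = 9). Its log2 fold changes were -1.15, -1.15 and -1.06 (adjusted p to 1.09e-07, edgeR). The de novo DNA methyltransferase Dnmt3b was lower too, by -0.86, -0.90 and -1.05, at 147 ± 11.1 against 280 ± 17.6 CPM (SD, n = 9). Tet2, which oxidizes methylated cytosine, was higher by 0.90, 0.70 and 0.71 (adjusted p to 0.0183, edgeR). The histone methyltransferase Ehmt2 was lower by -0.56 unstarved (adjusted p = 8.88e-06, edgeR), -0.66 without arginine (adjusted p = 9.15e-07, edgeR) and -0.72 without leucine (adjusted p = 2.22e-07, edgeR). On starvation, 8 regulators rose and 6 fell in Wt cells without arginine, 4 rose and 6 fell without leucine, and in Gcn cells 1 rose and 5 fell without arginine and 2 rose and 5 fell without leucine. In the same order, 20.9%, 15.5%, 14.3% and 11.7% of all genes tested rose and 20.0%, 14.1%, 13.7% and 10.0% fell. Uhrf1, which directs DNMT1 to replicating DNA, rose by 0.41 (adjusted p = 8.56e-05, edgeR) and 0.37 (adjusted p = 0.000414, edgeR) in Wt and by 0.72 (adjusted p = 0.000119, edgeR) and 0.73 (adjusted p = 0.000193, edgeR) in Gcn cells. Zfp57, which binds the methylated control regions, fell in all 4 comparisons. For arginine and leucine, it fell by -0.48 (adjusted p = 1.43e-05, edgeR) and -0.33 (adjusted p = 0.000923, edgeR) in Wt cells. In Gcn cells it fell by -0.42 (adjusted p = 0.00137, edgeR) and -0.31 (adjusted p = 0.0124, edgeR). Unstarved, Zfp57 was higher in Gcn than in Wt cells by 0.55 (adjusted p = 1.61e-06, edgeR). Smchd1 rose in Wt cells without arginine by 0.47 (adjusted p = 0.00949, edgeR). Without leucine Dnmt1 rose by 0.35 in Wt (adjusted p = 0.00262, edgeR) and 0.38 in Gcn cells (adjusted p = 0.0171, edgeR). Kdm1b, a histone demethylase of the oocyte, fell without leucine by -0.38 in Wt (adjusted p = 0.00415, edgeR) and -0.64 in Gcn cells (adjusted p = 0.00148, edgeR). Without arginine Kdm1b fell by -0.34 in Wt (adjusted p = 0.00588, edgeR) and -0.37 in Gcn cells (adjusted p = 0.0301, edgeR). Dnmt3a fell in Gcn cells by -0.58 without arginine (adjusted p = 0.000151, edgeR) and -0.43 without leucine (adjusted p = 0.00187, edgeR). In Wt cells Dnmt3a fell too, by -0.35 (adjusted p = 0.000186, edgeR) and -0.22 (adjusted p = 0.0122, edgeR). Arid4b fell in Gcn cells by -0.51 without arginine (adjusted p = 0.0405, edgeR).

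Of 50 genes that lie beside the members, 36 were tested between genotypes, and 5 were higher and 9 lower in unstarved Gcn cells, 6 and 13 without arginine, and 4 and 8 without leucine. Of all genes tested 32.8%, 31.5% and 31.1% were called. Tnnt3 and Lsp1, which neighbor H19, were lower in every medium. Neither passed the filter in the Gcn cells alone. They entered this comparison, and the counts above, through the Wt libraries, where they were higher. Lsp1 was at 0.674 to 1.5 CPM in Wt and 0.0637 to 0.307 CPM in Gcn libraries, with log2 fold changes of -2.42, -2.45 and -2.39 (adjusted p to 0.00019, edgeR). Tnnt3 was at 0.306 to 0.742 CPM in Wt and 0 to 0.13 CPM in Gcn libraries. Pon2, near Peg10, was lower by -0.77 unstarved (adjusted p = 6.97e-06, edgeR), -1.28 without arginine and -1.29 without leucine (adjusted p = 6.56e-09, edgeR). Zfp264, near Peg3, was higher, at 9.06 ± 1.56 against 3.63 ± 0.565 CPM (SD, n = 9). It differed by 1.48 unstarved (adjusted p = 5.36e-08, edgeR), 1.37 without arginine (adjusted p = 6.68e-08, edgeR) and 1.10 without leucine. On starvation 34 of the neighbors were tested, of which 5 rose and 3 fell in Wt cells without arginine and 2 and 5 without leucine, and 3 and 5 in Gcn cells with either amino acid missing, where 40.9%, 29.6%, 28.0% and 21.8% of all genes tested were called in those 4 comparisons. Cep41, next to Mest, rose in Wt cells by 0.73 (adjusted p = 1.34e-05, edgeR) without arginine and 0.50 (adjusted p = 0.00085, edgeR) without leucine. In Gcn cells Cep41 rose by 0.57 (adjusted p = 0.000953, edgeR) and 0.33 (adjusted p = 0.0327, edgeR). Tspan32 rose in Gcn cells by 1.47 (adjusted p = 0.00373, edgeR) and 1.31 (adjusted p = 0.00848, edgeR), from a level of 0.344 to 1.98 CPM over the Gcn libraries. In Wt cells Tspan32 rose by 0.62 without arginine (adjusted p = 0.0299, edgeR), and its leucine value was 0.52 (adjusted p = 0.0912, edgeR). Cd81, near the Kcnq1ot1 cluster, fell in all 4 comparisons, by -0.75, -0.85, -0.72 and -0.74 on the log2 scale (adjusted p to 0.000174, edgeR). Cars, a tRNA synthetase gene, was the 1 neighbor called in an interaction, by -0.60 ± 0.13 for arginine (adjusted p = 0.0106, edgeR).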

How the data were processed

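RNA of 18 libraries had been sequenced as 43 bp read pairs from poly(A) RNA. The submitters' processing notes name, without roles, GRCm38, R 4.0.3, STAR 2.7.4a, FastQC 0.11.7, DESeq 1.30.1, bcl2fastq, DESeq2 and HTSeq. No source used here gives the annotation release or the strand setting. The authors' deposited tables, 1 per genotype, hold raw counts per gene; their normalized tables were not used. Of 55471 identifiers, 55230 matched a symbol in GENCODE vM21, and 0 named no gene. The members and lists were chosen with earlier results of these data known. Genes were tested with edgeR 4.0.16 (filterByExpr, TMM, robust quasi-likelihood test, Benjamini-Hochberg adjustment over all genes tested, called under 0.05) in R 4.3.3. Starvation comparisons used the 9 libraries of a genotype, and the others all 18. Standard errors were taken from the F statistic, as |log2 fold change|/sqrt(F). The procedure was tested on simulated data. Alternatives were DESeq2 1.42.0, limma-voom (limma 3.58.1), library size scaling, no filter, leaving out each library, the Gcn libraries numbered 1 left out, a replicate block, all 18 libraries in the starvation fits and, chosen after seeing the data, the block with a GC correction. Described in full were called members with a mean of at least 1 CPM, at most 8 per comparison by size of change; from the 2 lists, the 3 largest changes and genes overlapping a member were named. Other members are given more briefly. Same-numbered libraries correlated by 0.18 to 0.49 within Gcn and by 0.05 to 0.28 within Wt, and between -0.23 and 0.14 across genotypes. The block lay within each genotype for the interactions, but was shared by both genotypes in the genotype comparisons.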

Additional observations from a re-analysis of the deposited data

Results flagged for a closer look

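The response of Mest to starvation differed between the genotypes by a test of the difference itself. The interaction was -0.55 on the log2 scale for arginine and -0.58 for leucine, so that Mest fell further in Gcn than in Wt cells. Both calls were made under every alternative run.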

How the results depend on the processing

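Of 119 called or named gene results, refitted 2583 times, 2400 refits kept the direction and the call, 157 lost a call (in 31 results), 25 gained one and 1 reversed: Gnas in Wt cells without arginine moved from -0.14 to 0.01 with the replicate block and GC correction. Of the 48 genotype results of the 16 members called in all 3 media, 45 lost no call, the exceptions being those of Ube3a. With all 18 libraries in the fit, 11 and 6 members were called in Wt cells without arginine and leucine. Without a filter, 13 were called in Gcn cells without arginine and 4 in the arginine interaction. The replicate block gave 19 and 13 in Gcn cells and 9 in each interaction, and the block with GC correction 19, 14, 10 and 6. DESeq2 called 2 and 3 in the interactions. Of 16924 genes tested, it called 237 higher and 549 lower for arginine, and 128 higher and 245 lower for leucine. Leaving out 1 library gave 11 to 17 and 6 to 10 members in Wt cells, 6 to 9 and 4 to 6 in Gcn cells, 18 to 21, 20 to 23 and 17 to 22 between genotypes, and 1 to 2 in each interaction. Shares of all genes are not given for the fits with all 18 libraries, without a filter, with GC correction or without 1 library. Those counts thus do not set the members apart. Library size scaling moved the median of all genes in Gcn cells without arginine from -0.01 to 0.11 and the share of their calls that were higher from 51.0% to 71.2%, in Gcn cells without leucine from 53.9% to 71.0%, in the interactions from 26.9% to 64.8% and from 18.7% to 51.0%, and between genotypes without arginine from 46.9% to 57.0%. The block ended the calls of Ube3a between genotypes without arginine and of Zdbf2 in Wt cells without leucine, and no other call of a member described in full. Between genotypes it joined same-numbered Wt and Gcn libraries, for which the correlations showed no pairing. The Wt numbers do not pair their libraries by the rule used. Airn, Rasgrf1 and Rtl1, with 0 to 5 counts per library, were tested only in the fit without a filter, where none was called by edgeR (lowest adjusted p 0.072, Airn between genotypes without leucine).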
